A study of Mus musculus with 14 samples.

Results

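Whole intra-aortic haematopoietic clusters (wIAHCs) from the dorsal side of the aorta were compared between embryonic day (E)11 and E10 in 12 and 7 CEL-Seq libraries, each made from 1 cluster picked by a micromanipulator. They are the dorsal libraries with at least 5000 transcripts, not counting spike-in RNA, and make up 19 of the 109 wIAHC libraries, or of 39 dorsal libraries at any depth. All embryos were C57BL/6 wild type. At E10 they had 28 to 32 somite pairs and at E11 over 40, and the clusters had been stained inside the aorta with an antibody against c-kit. The E11 clusters carry names of 2 collection sets, with 6 libraries each (of 11 and 10 at any depth), which are called set 1 and set 2 and shown apart for the genes on which the results turn. All E10 clusters belong to a single set, so stage cannot be told apart from collection within it. The shallowest library kept held 6656 transcripts at E10 and 5099 at E11, and the deepest left out held 3596 and 4892.

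IAHCs are groups of round cells that bud from haemogenic endothelium into the lumen of the aorta. They hold precursors of haematopoietic stem cells and committed progenitors, and are most frequent in mid-gestation. Mouse IAHCs sit on the ventral and the dorsal wall, and E10 and E11 lie around the time when the first transplantable stem cells appear. A library of a whole cluster mixes the RNA of all its cells, so fewer cells of a type and less RNA per cell cannot be told apart.

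The libraries differed in depth and spike-in content as well as in stage. Totals ranged from 6656 to 115328 transcripts at E10 (median 14063), from 6876 to 25968 in set 1 (median 12554) and from 5099 to 11666 in set 2 (median 6264). On the log10 scale, mean totals differed by -0.287 (E11 minus E10), which did not pass an exact 2-sided permutation test (p = 0.066, n = 7 and 12), and by -0.421 for set 2 alone (exact permutation p = 0.01, n = 7 and 6). Thinned to 5000 transcripts, a library held 2341 ± 114 genes at E10 and 2383 ± 247 at E11 (SD, exact permutation p = 0.68, n = 7 and 12). Spike-in transcripts numbered 2 to 152 at E10, 318 to 10085 in set 1 and 0 in all 6 libraries of set 2. The log10 ratio of transcripts to spike-ins was 3.12 ± 0.783 at E10 and 0.935 ± 0.638 in set 1 (SD, exact permutation p = 0.0012, n = 7 and 6, the smallest p this design allows), and has no value in set 2. What part these differences between sets had in the results below was not tested. Among 51 pairs of libraries from the same group, E11 libraries 8 and 10, both of set 2, were the closest, and their difference did not pass the test against sampling noise (chi-square per degree of freedom 1.15, p = 0.1), against a median of 2.97 over all pairs. The labels list them as separate clusters and they were kept apart. With both summed as 1 library, an alternative added after the data were seen, 24 genes were called in place of 26.

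Transcripts of 6 IAHC markers (*Gpr56*, *Cd34*, *Runx1* and others) made up 0.119 to 0.279% of an E10 library, 0.163 to 0.308% in set 1 and 0.0197 to 0.192% in set 2, and no marker was at 0 in any group. Endothelial markers summed to 0.0286 to 0.0784% at E10, 0.0731 to 0.227% in set 1 and 0 to 0.179% in set 2, and 8 of 12 E11 libraries lay above the highest E10 library. Macrophage markers reached at most 0.0431% and epithelial markers at most 0.0157% of any library. Mesenchymal markers took 0 to 0.0243% at E10, 0 to 0.145% in set 1 and 0 to 0.049% in set 2, with 5 of 12 E11 libraries above the highest E10 library, and *Pdgfrb* was at 0 in every library. The part of endothelial and mesenchymal cells in the results was not tested. Erythroid markers reached 0.0541% at E10 and 0.163% in set 1, and ran from 0.204 to 26.5% in set 2. *Gata1* and *Alas2*, which mark red cells, had 0 transcripts at E10 and in set 1.

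Of 260 genes abundant enough to test, 26 differed between E11 and E10 dorsal wIAHCs (edgeR quasi-likelihood test, adjusted p of 0.05), which is 10% of those tested, and 67 had an unadjusted p under 0.05. E11 was higher for 21 genes (8.08%) and lower for 5 (1.92%). Higher were fetal growth genes of 1 imprinted region (*Igf2* and *H19*), 3 embryonic globin genes, ribosomal RNA precursor (*Rn45s*), *Malat1* and a set of ribosomal protein genes and pseudogenes. Lower were *Rplp2*, *Hspe1*, *Mif*, *Actg1* and the entry *Mir682*. The balance of higher and lower genes turned with scaling and tool. Library totals only gave 16 higher and 35 lower of the 260 genes. DESeq2 gave 5 higher and 186 lower of 946 genes with an adjusted p. For none of the 260 genes were the levels of the 12 E11 libraries all above or all below those of the 7 E10 libraries. How many genes or lists lay apart from E10 in a single set was not counted, so such cases below only describe the levels. All 26 called genes had the same sign in set 1 and in set 2 when each was compared with E10, and 5 passed the test in each set. Set 1 against E10 gave 13 calls among 347 genes (3.75%), 9 higher (2.59%) and 4 lower (1.15%). Set 2 against E10 gave 35 calls (10.1%), 23 higher (6.63%) and 12 lower (3.46%). Both comparisons use the same E10 libraries. With the lower bar on abundance described below, which took in 2533 genes, the balance turned. Set 1 then gave 12 higher and 15 lower genes, and set 2 gave 6 higher and 36 lower.

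**Figure D1:**
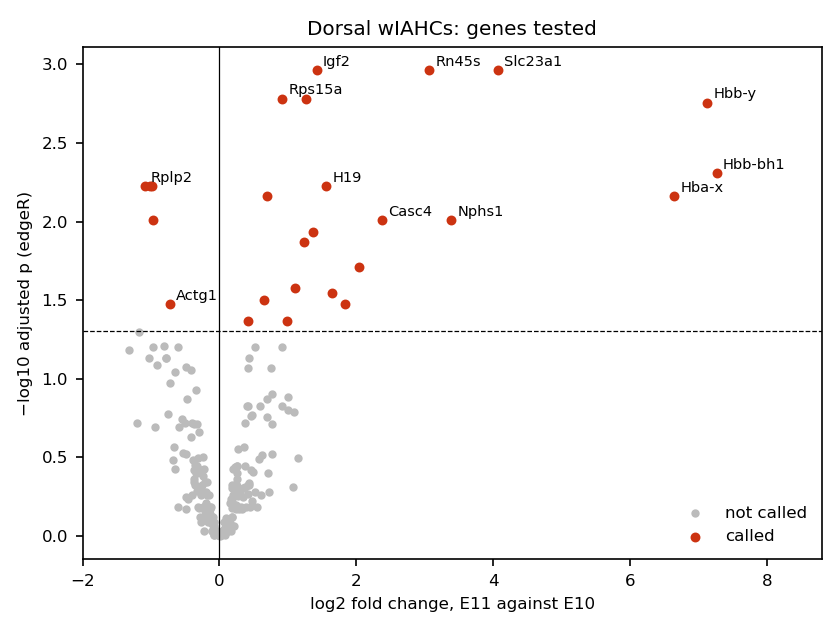
Log2 fold change (E11 against E10) of the 260 tested genes in dorsal wIAHCs against the −log10 adjusted p from edgeR, with the 26 called genes in red above the dashed line at an adjusted p of 0.05. The 3 globin genes stand apart at the right, and the 5 lower genes lie between -0.72 and -1.09.

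The promoters of 4 called genes that sit in gene clusters or pairs are shown first. *Hbb-y* and *Hba-x* are embryonic globin genes of the beta and the alpha locus, *Igf2* lies next to *H19*, and *Hspe1* shares its upstream region with *Hspd1*. The windows, of 300 bases from 250 before to 50 after the start site, are from RefSeq (GRCm38.p6, which is mm10) and run 5′ to 3′ on the strand of the gene. They lie at chr7:103853158-103853457, minus strand (*Hbb-y*), chr11:32276350-32276649, plus strand (*Hba-x*), chr7:142657447-142657746, minus strand (*Igf2*), and chr1:55087898-55088197, plus strand (*Hspe1*). Capitals mark matches, on either strand, to any of 5 motifs that were searched for: the CCAAT box, the CACCC box of globin and other promoters, the TATAAA box, the GATA factor motif AGATAA, and the E-box CACGTG, which is its own reverse complement. No matches overlap. RefSeq lists 4 *Igf2* starts, of which the most downstream is shown, and 3′ tags cannot tell the starts apart.
Hbb-y: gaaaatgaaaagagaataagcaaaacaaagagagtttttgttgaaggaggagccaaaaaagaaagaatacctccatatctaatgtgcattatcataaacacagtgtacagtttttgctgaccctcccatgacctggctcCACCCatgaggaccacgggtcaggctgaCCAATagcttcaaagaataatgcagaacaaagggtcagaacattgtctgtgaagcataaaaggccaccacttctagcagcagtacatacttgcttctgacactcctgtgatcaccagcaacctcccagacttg
Hba-x: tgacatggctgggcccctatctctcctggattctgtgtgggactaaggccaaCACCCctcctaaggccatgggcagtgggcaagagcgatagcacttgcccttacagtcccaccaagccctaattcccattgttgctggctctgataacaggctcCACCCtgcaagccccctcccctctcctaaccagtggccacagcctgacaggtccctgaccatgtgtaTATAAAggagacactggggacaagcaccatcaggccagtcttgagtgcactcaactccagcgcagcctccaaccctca
Igf2: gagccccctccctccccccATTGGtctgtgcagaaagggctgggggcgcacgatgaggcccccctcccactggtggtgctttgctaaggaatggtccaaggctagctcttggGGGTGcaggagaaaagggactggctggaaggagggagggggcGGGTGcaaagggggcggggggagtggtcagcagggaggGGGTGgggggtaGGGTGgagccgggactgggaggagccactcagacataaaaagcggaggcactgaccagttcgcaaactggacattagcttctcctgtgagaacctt
Hspe1: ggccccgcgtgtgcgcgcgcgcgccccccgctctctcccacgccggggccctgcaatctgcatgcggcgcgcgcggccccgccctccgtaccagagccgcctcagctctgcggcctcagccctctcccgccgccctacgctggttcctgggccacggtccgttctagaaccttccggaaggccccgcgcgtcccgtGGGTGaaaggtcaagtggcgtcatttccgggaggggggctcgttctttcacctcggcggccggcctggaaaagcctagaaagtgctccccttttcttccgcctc
The *Hbb-y* window holds the CACCC box at -111 and the CCAAT box at -83 from the start site. The *Hba-x* window holds the CACCC box at -198 and at -95, and the TATAAA box at -28. On the reverse strand, the *Igf2* window holds the CCAAT box at -231 and 4 CACCC boxes from -138 to -46, and the *Hspe1* window 1 CACCC box at -54. Of all 32851 windows, 57.5% hold the CACCC box, 37.4% the CCAAT box, 13.6% the TATAAA box, 11.2% the GATA motif and 7.15% the E-box, so these matches describe the windows only.

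*Igf2* encodes insulin-like growth factor 2, a growth factor of fetal tissues expressed from the paternal allele (chr7:142650768-142666816 in GRCm38.p6). Its level was 13.3 to 30.5 transcripts per 10000 at E10 (median 16.6), 40.7 to 63.8 in set 1 (median 54.1) and 7.65 to 95.3 in set 2 (median 52.1). All 6 libraries of set 1 and 5 of 6 of set 2 lay above every E10 library, and 1 lay below them all, library 9 of E11, in which 27.5% of transcripts were haemoglobin. The log2 fold change was 1.42 ± 0.30 (SE, edgeR adjusted p = 0.0011), with 1.34 in set 1 (adjusted p = 0.0072) and 1.41 in set 2 (adjusted p = 0.0047). It was not called by DESeq2 (0.64, adjusted p = 0.15), with no filter on abundance (0.83, adjusted p = 0.14) or with libraries of at least 10000 transcripts (1.19, adjusted p = 0.095). *H19*, a long non-coding RNA expressed from the maternal allele, lies 72622 bases from *Igf2*. Its level was 9.29 to 46 per 10000 at E10 (median 19.8), 24.1 to 166 in set 1 (median 58.7) and 25.5 to 138 in set 2 (median 60). The ranges overlapped, with 7 of 12 E11 libraries above the highest E10 library. The log2 fold change of *H19* was 1.56 ± 0.40 (SE, edgeR adjusted p = 0.006), with 1.49 in set 1 and 1.54 in set 2, and was not called by DESeq2 (0.83, adjusted p = 0.1) or with at least 10000 transcripts (1.48, adjusted p = 0.12). With the lower bar on abundance described below, its call (1.14, adjusted p = 0.038) was lost without any 1 of 9 libraries, while over the 260 genes it stayed with any library left out. With that bar *H19* was not called in set 1 or set 2 alone (adjusted p = 0.064 and 0.13). *Igf2* was called with that bar (1.02, adjusted p = 0.02) and in set 1 (adjusted p = 0.029). It was not called there in set 2 (adjusted p = 0.092) or without E10 library 7 (adjusted p = 0.051). Of 16 genes of imprinted growth control, 4 were abundant enough to test, 2 rose, beside 8.08% of all genes tested, and 2 did not pass, with a median log2 fold change of 1.26 beside 0.02 over all genes tested. *Cdkn1c*, a brake on the cell cycle in this list and also imprinted, was at 1.09 ± 0.50 (SE, adjusted p = 0.16). *Hmga2*, a chromatin protein of fetal stem cells, was at 0.92 ± 0.33 (SE, adjusted p = 0.063). Ventral wIAHCs had median *Igf2* levels of 19.2 at E10 and 29.6 at E11, and median *H19* levels of 12.3 and 42.7. A difference of the stage effect between sides did not pass the test for either gene (interaction log2 0.62, adjusted p = 0.5, and 0.08, adjusted p = 0.98).

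The embryonic globin genes *Hbb-y* (epsilon-like), *Hbb-bh1* and *Hba-x* (zeta) are expressed by the primitive red cells of the yolk sac, which circulate in the aorta at these stages. *Hbb-y* was at 0.256 to 3.07 transcripts per 10000 at E10 and at 0 to 9.26 in set 1. In set 2 it was at 10.5, 20.7, 21.3, 38.6, 282 and 1633, so that every library of set 2 lay above every library of E10 and set 1, and libraries 9 and 12 lay far above the rest. Its log2 fold change was 7.12 ± 1.61 (SE, edgeR adjusted p = 0.0017) over both sets, 1.49 in set 1 (adjusted p = 0.69) and 8.13 in set 2 (adjusted p = 1.2e-05). *Hbb-bh1* was at 7.26 ± 1.78 (SE, adjusted p = 0.0049) and *Hba-x* at 6.64 ± 1.75 (SE, adjusted p = 0.0069), with 0.41 and 1.10 in set 1. The 3 globin genes differed between the E11 sets themselves (below). All haemoglobin transcripts together took 0.00785 to 0.0541% of an E10 library, 0.0116 to 0.174% in set 1, and in set 2 from 0.206 to 27.5%, with 27.5% in library 9 and 5.39% in library 12. Without libraries 9 and 12, the fold changes were 3.09 for *Hbb-y* (adjusted p = 0.19), 2.60 for *Hbb-bh1* (adjusted p = 0.43) and 2.26 for *Hba-x* (adjusted p = 0.52), a choice made after the data were seen. Without library 9 alone, *Hbb-y* stayed called at 4.83 (edgeR adjusted p = 0.022), and the calls of *Hbb-bh1* (adjusted p = 0.074) and *Hba-x* (adjusted p = 0.16) were lost. Leaving out every library of over 10% haemoglobin, ventral ones included, *Hbb-y* (4.87, adjusted p = 0.00029) and *Hbb-bh1* (4.62, adjusted p = 0.0013) stayed called and *Hba-x* was not abundant enough to test. The values also moved with the threshold on depth. Libraries of at least 3000 transcripts take in 2 more E10 and 3 more E11 dorsal libraries, among them an E10 library of 3086 transcripts with 25.8% haemoglobin, and the changes were then 0.43 for *Hbb-y*, 0.05 for *Hbb-bh1* and -0.43 for *Hba-x*. The blood had been flushed from the aorta before clusters were picked, and the part of red cells in these values was not tested.

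**Figure D2:**
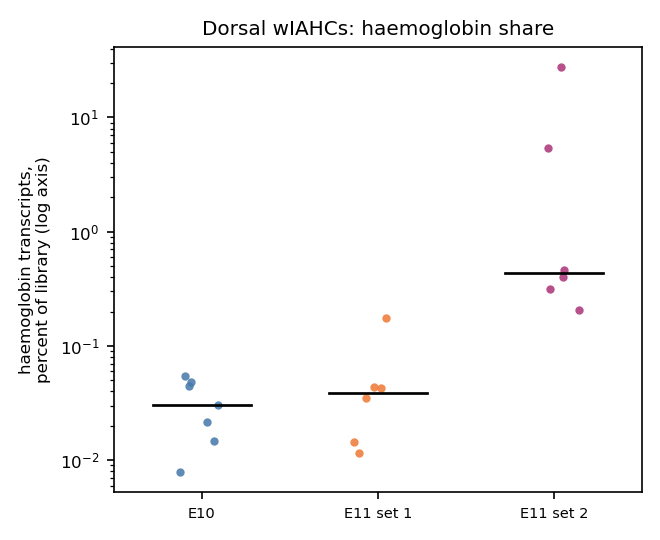
Haemoglobin transcripts as a percent of each dorsal wIAHC library, on a log axis, for 7 E10, 6 E11 set 1 and 6 E11 set 2 libraries, with the median as a line. Set 2 runs from 0.206 to 27.5%, above the highest value of E10 (0.0541%) and of set 1 (0.174%).

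*Rn45s* is the precursor of ribosomal RNA, which is not polyadenylated like the messenger RNA that CEL-Seq primes on. It was at 8.28 to 23 per 10000 at E10 (median 16.1), 19.9 to 307 in set 1 (median 164) and 35.3 to 316 in set 2 (median 45.4). Of the E11 libraries, 11 of 12 lay above all E10 libraries. Its log2 fold change was 3.06 ± 0.63 (SE, edgeR adjusted p = 0.0011), and it was called in set 1 (3.32), in set 2 (2.54) and with any single library left out. *Malat1*, a nuclear long non-coding RNA, was at a median of 2.75 at E10, 11.4 in set 1 and 8.82 in set 2 (log2 1.65 ± 0.52, SE, adjusted p = 0.029), a call lost without any 1 of 6 libraries (E10 libraries 1 to 4, E11 libraries 3 and 7). It was also lost with either set only (adjusted p = 0.096 for set 1 and 0.053 for set 2), by DESeq2 (0.84, adjusted p = 0.14), with no filter (adjusted p = 0.28) and with the lower bar described below (adjusted p = 0.11). *Slc23a1*, a transporter of vitamin C, had 4 transcripts in all 7 E10 libraries together and 45 in the 12 of E11. It was at 0 to 0.732 per 10000 at E10, 0.831 to 8.95 in set 1 and 0 to 6.81 in set 2, with 9 of 12 E11 libraries above the highest E10 library (log2 4.07 ± 0.83, SE, edgeR adjusted p = 0.0011). 4 further genes were highest in E11 library 2 of set 1. *Casc4* was at 110 per 10000 in that library and at most 13.9 in any other E11 library (log2 2.37 ± 0.65, SE, adjusted p = 0.0098), and lost its call without it (1.34, adjusted p = 0.12). *Nphs1*, the slit diaphragm protein nephrin of kidney podocytes, was at 24.3 in library 2, 18.2 in library 7 and 5.74 in library 11, and between 0 and 1.84 in the other E11 libraries (log2 3.38 ± 0.93, SE, adjusted p = 0.0098). *Stxbp2*, a factor of vesicle release, was highest in the same library at 42.2 (log2 1.83 ± 0.59, SE, adjusted p = 0.034), a call lost without that library or any 1 of 6 others. *A230046K03Rik* reached 44.7 there (log2 2.04, edgeR adjusted p = 0.019, lost without it or without E10 library 4). With set 2 only, *Casc4* (1.42, adjusted p = 0.27), *Stxbp2* (1.15, adjusted p = 0.35) and *A230046K03Rik* (1.32, adjusted p = 0.29) were not called, and with set 1 only *Nphs1* was not (3.30, adjusted p = 0.052). DESeq2 called none of these 4 (adjusted p = 0.085 for *Casc4*, 0.065 for *Nphs1*, 0.21 for *Stxbp2* and 0.17 for *A230046K03Rik*), and the lower bar did not call *Stxbp2* (adjusted p = 0.12) or *A230046K03Rik* (adjusted p = 0.082). *Lrrc58*, a protein with leucine-rich repeats, rose by 1.36 ± 0.38 (SE, adjusted p = 0.012), and this call was lost without E10 library 4, with set 1 only (adjusted p = 0.077, against 0.039 with set 2 only), by DESeq2 (0.56, adjusted p = 0.33), with no filter (adjusted p = 0.52) and with the lower bar (adjusted p = 0.14).

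**Figure D3:**
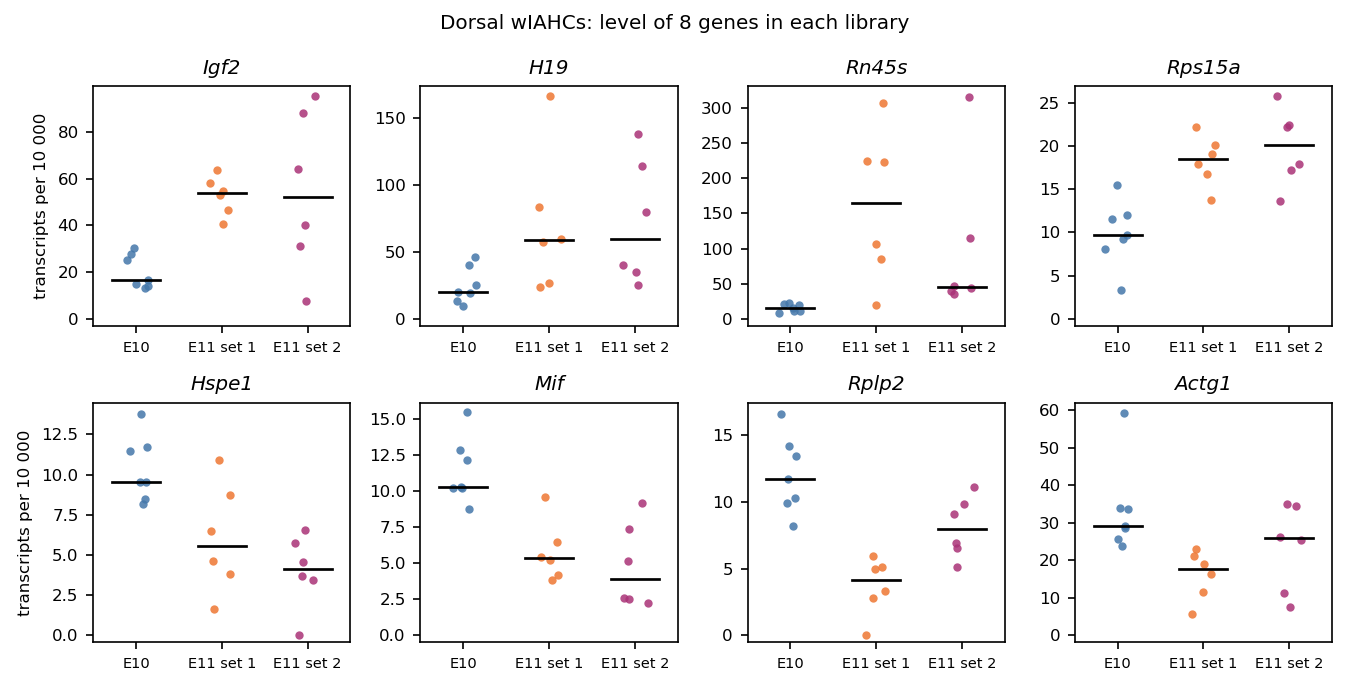
Levels of 8 genes, in transcripts per 10000, in each dorsal wIAHC library of E10 (7), E11 set 1 (6) and E11 set 2 (6), with the median as a line and a vertical scale of its own for each gene. *Igf2*, *H19*, *Rn45s* and *Rps15a* lie higher at E11, and *Hspe1*, *Mif*, *Rplp2* and *Actg1* lower, and for none of the 8 do all E11 libraries lie on 1 side of the E10 libraries.

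Ribosomal protein genes made up 76 of the 260 genes tested. Of these, *Rps15a*, *Rpsa*, *Rpl22l1* and *Rpl27a* rose, *Rplp2* fell, and the median log2 fold change was 0.02, equal to that of all genes tested, of which 8.08% rose and 1.92% fell. The direction of this list turned with scaling and filter. Scaled by library totals only, 1 of the 76 rose and 7 fell (median -0.22), and with the lower bar on abundance described below, 0 of 79 rose and 3 fell (median -0.37). *Rps15a*, of the small subunit, was at 3.38 to 15.5 per 10000 at E10 (median 9.74), 13.8 to 22.2 in set 1 and 13.6 to 25.8 in set 2, and 10 of 12 E11 libraries lay above all E10 libraries (log2 0.92 ± 0.20, SE, adjusted p = 0.0016). It was not called by DESeq2 (0.07, adjusted p = 0.89), with no filter (0.31, adjusted p = 0.72) or with the lower bar described below (0.54, adjusted p = 0.31). The pseudogene entry *Rps15a-ps6* also rose (1.26 ± 0.28, SE, adjusted p = 0.0016), as did *Rpl31-ps12* (0.69 ± 0.18, SE, adjusted p = 0.0069), *Gm9846* (1.24, adjusted p = 0.014) and *Gm15421* (1.11, adjusted p = 0.026). RefSeq lists *Rps15a-ps6* and *Gm15421* as transcribed pseudogenes and *Rpl31-ps12* as protein-coding, and *Gm9846* was not matched to a RefSeq gene. With set 1 only, none of these 4 entries was called (adjusted p = 0.16, 0.1, 0.25 and 0.16), nor with the lower bar (adjusted p = 0.093, 0.57, 0.24 and 0.35) or with no filter. By DESeq2 none of the 4 was called either (adjusted p = 0.44, 0.77, 0.6 and 0.69), and *Rpl31-ps12* turned to -0.12. *Gm9846* lost its edgeR call without E10 library 5 and *Gm15421* without any 1 of 4 libraries. Reads of near-identical copies may be shared between a gene and such entries, so that these values are uncertain. *Rpsa* (0.64 ± 0.21), *Rpl22l1* (0.98 ± 0.33) and *Rpl27a* (0.42 ± 0.14) lay close to the threshold (SE, adjusted p = 0.032, 0.043 and 0.043), and their calls were lost without any 1 of 8, 12 and 11 libraries. DESeq2 called none of these 3, with *Rpsa* at -0.18, *Rpl22l1* at 0.10 and *Rpl27a* at -0.35 (adjusted p = 0.59, 0.87 and 0.37). *Rplp2*, an acidic stalk protein of the large subunit, was at 8.19 to 16.6 per 10000 at E10 (median 11.7), 0 to 5.91 in set 1 (median 4.16) and 5.1 to 11.1 in set 2 (median 7.99). Set 1 lay wholly below E10, and 3 libraries of set 2 lay within the E10 range. The log2 fold change was -1.09 ± 0.28 (SE, edgeR adjusted p = 0.006), with -1.64 in set 1 (adjusted p = 0.00012) and -0.61 in set 2 (adjusted p = 0.21). Ribosomal proteins as a whole took 18.1 to 27.6% of transcripts at E10, 15.2 to 18.7% in set 1 and 14.1 to 23.6% in set 2.

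The other lower genes included a mitochondrial co-chaperone, a cytokine and an actin. *Hspe1* encodes the 10-kDa co-chaperone of mitochondrial Hsp60. It was at 8.19 to 13.8 per 10000 at E10 (median 9.55), 1.66 to 10.9 in set 1 (median 5.54) and 0 to 6.54 in set 2 (median 4.11), and 10 of 12 E11 libraries lay below all E10 libraries (log2 -0.99 ± 0.25, SE, edgeR adjusted p = 0.006). *Hspd1*, which encodes Hsp60 itself, starts 95 or 216 bases from the *Hspe1* start site printed above, on the other strand, for its 2 listed starts. It was at -0.81 ± 0.29 (SE, adjusted p = 0.062) and did not pass, with medians of 7.16 at E10, 4.16 in set 1 and 2.95 in set 2. *Mif*, a cytokine that also acts as a tautomerase, was at 8.79 to 15.5 at E10 (median 10.3), 3.83 to 9.58 in set 1 (median 5.36) and 2.27 to 9.22 in set 2 (median 3.9). For *Mif*, 10 of 12 E11 libraries lay below all E10 libraries (log2 -0.98 ± 0.27, SE, edgeR adjusted p = 0.0098). *Actg1*, cytoplasmic gamma-actin, was at 23.7 to 59.3 at E10 (median 29.2), 5.82 to 23.1 in set 1, wholly below E10, and 7.65 to 35.1 in set 2 (log2 -0.72 ± 0.23, SE, adjusted p = 0.034), a call lost without E10 library 3 or 4 or E11 library 1 or 2. The levels of the entry *Mir682* lay from 8.94 to 15.1 among E10 libraries, from 2.49 to 9.19 in set 1 and from 2.62 to 5.53 in set 2 (log2 -1.01 ± 0.26, SE, adjusted p = 0.006). None of the 5 lower genes was called with libraries of at least 10000 transcripts, of which 5 were left at each stage, though all 5 kept their sign (*Mif* -0.77, adjusted p = 0.25, and *Hspe1* -1.05, adjusted p = 0.095). With set 1 as the only E11 libraries in the test, *Mif*, *Hspe1* and *Mir682* were not called (edgeR adjusted p = 0.059, 0.053 and 0.077), and with set 2 only, *Rplp2* and *Actg1* were not (adjusted p = 0.21 and 0.32). The RefSeq mature sequence of *Mir682*, at chr13:75645119-75645139 on the plus strand of GRCm38.p6, is printed with bases 2 to 8, the seed, in capitals. CEL-Seq reads transcripts with a poly(A) tail and does not measure the mature miRNA.
mmu-miR-682: cUGCAGUCacagugaagucug

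**Figure D4:**
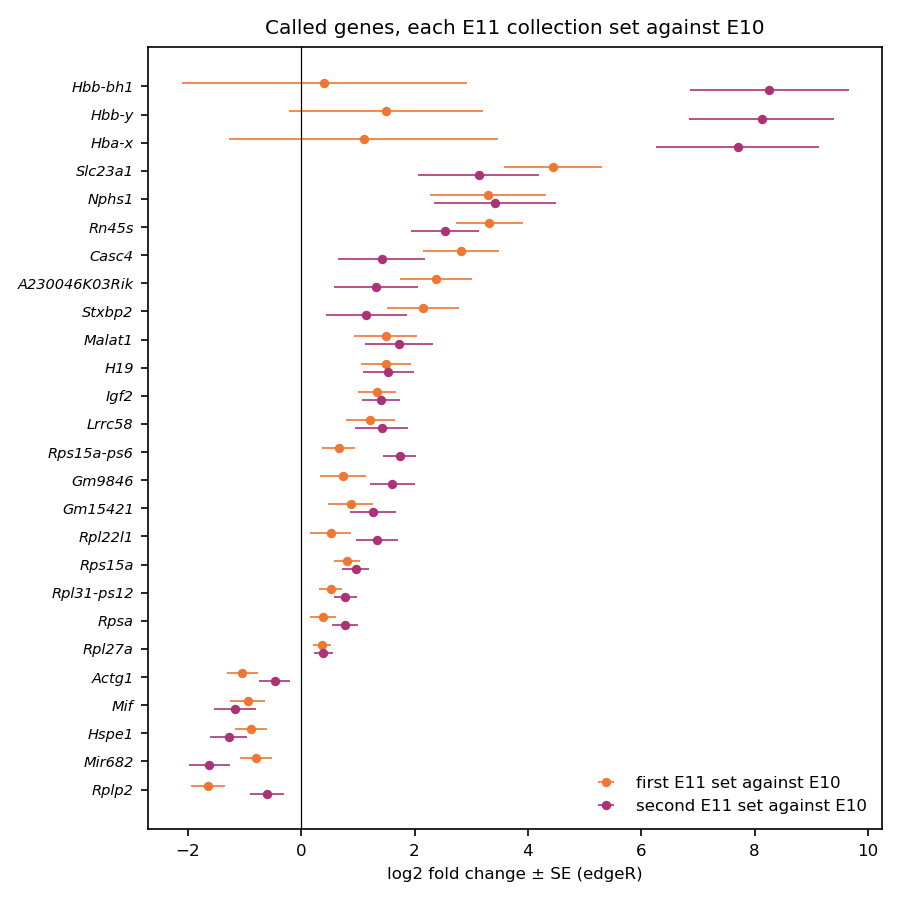
Log2 fold change with SE (edgeR) of the 26 called genes in each E11 collection set against the same 7 E10 libraries, set 1 in orange and set 2 in purple. All 26 have 1 sign in both sets, and the globin genes lie between 7.70 and 8.26 in set 2 and between 0.41 and 1.49 in set 1.

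A test with a lower bar on abundance asked for at least 5 transcripts in 7 of the 57 dorsal and ventral libraries. A gene could thus enter through ventral libraries with few transcripts in dorsal ones, as *Mecom*, *Bop1* and *Aurka* did. The test took in 2533 genes and called 73 (2.88%), of which 19 were higher (0.750%) and 54 lower (2.13%) at E11. Of the 26 genes called above, 14 were also called here, including all 5 that fell. The median log2 fold change of all 2533 genes was -0.23, and the 260 genes shared by both tests shifted by -0.38, so that the balance of higher and lower genes depends on the scaling. Higher genes were 80.8% of the calls over 260 genes, 31.4% with the same genes scaled by library totals only, and 26% in the test of 2533 genes. With relative log expression scaling the latter called 41 higher and 16 lower genes with a median of 0.14 over all, and without E10 library 4, the deepest, 9 higher and 21 lower. The genes that follow are given beside the median of -0.23.

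Among the 19 higher genes of this test, and chosen after their values were seen, were *Lars2*, *Klf13*, *Hist1h2ao* and *Igf1r*. *Lars2*, the mitochondrial leucyl-tRNA synthetase, was at 0 to 1.02 per 10000 at E10, 1.66 to 5.11 in set 1 and 0 to 11.3 in set 2, with 10 of 12 E11 libraries above the highest E10 library (log2 3.04 ± 0.61, SE, edgeR adjusted p = 0.0011). It kept its call with any library left out and with relative log expression scaling (adjusted p = 0.00043), and was called in set 1 (adjusted p = 0.00097) and not in set 2 (adjusted p = 0.051). *Klf13*, a transcription factor of the Krüppel-like family, was at 2.67 ± 0.66 (SE, adjusted p = 0.011), with 5 transcripts over the E10 libraries and 28 over those of E11. *Hist1h2ao*, a histone H2A gene, was at 3.29 ± 0.83 (SE, adjusted p = 0.013), with 6 and 54 transcripts. *Igf1r*, the receptor that binds insulin-like growth factors, was at 1.87 ± 0.55 (SE, adjusted p = 0.04), with 13 and 34 transcripts. These 3 calls were lost without any 1 of 1, 2 and 11 libraries, and stayed with relative log expression scaling (adjusted p = 0.003, 0.0037 and 0.016) and in set 1 but not in set 2 (adjusted p = 0.25, 0.45 and 0.46).

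Of 16 genes of the nucleolus and of ribosome assembly tested with the lower bar, *Dkc1*, *Bop1* and *Nip7* fell, beside 2.13% of all 2533 genes, none rose and 13 did not pass. The median log2 fold change of the list was -0.65. *Nip7*, needed for processing of ribosomal RNA, was at 6.82 to 24.2 per 10000 at E10, 0.831 to 12.8 in set 1 and 3.69 to 8.19 in set 2 (log2 -1.64 ± 0.43, SE, edgeR adjusted p = 0.019). *Dkc1*, the pseudouridine synthase dyskerin, was at -1.25 ± 0.38 (SE, adjusted p = 0.047) and *Bop1*, of the PeBoW complex, at -2.48 ± 0.71 (SE, adjusted p = 0.033), with 34 *Bop1* transcripts over the E10 libraries and 3 over those of E11. E10 library 4, the deepest, held 25 of the 34, and mean *Bop1* levels were 1.27 per 10000 at E10 and 0.374 at E11. The calls of *Dkc1* and *Bop1* were lost without any 1 of 13 and 12 libraries, and that of *Nip7* without 2. With relative log expression scaling none of the 3 was called (adjusted p = 0.36, 0.12 and 0.12 for *Dkc1*, *Bop1* and *Nip7*), nor was any in set 1 (adjusted p = 0.11, 0.077 and 0.077) or set 2 alone (adjusted p = 0.2, 0.27 and 0.12). The list as a whole took 0.692 to 1.08% of transcripts at E10, 0.468 to 0.77% in set 1 and 0.276 to 0.635% in set 2, and every library of set 2 lay below every E10 library. *Npm1* and *Ncl*, the most abundant nucleolar proteins, did not pass over both sets (-0.71, adjusted p = 0.068, and -0.71, adjusted p = 0.18). In set 2 alone *Npm1* fell (-1.30, adjusted p = 0.0019), against -0.33 in set 1 (adjusted p = 0.62). Outside the list, and chosen after their values were seen, *Nop2* (-2.42), *Mrto4* (-2.41) and *Pno1* (-2.43) of ribosome assembly also fell (SE 0.65, 0.67 and 0.60, adjusted p = 0.021, 0.032 and 0.01). With relative log expression scaling *Nop2* and *Mrto4* were not called (adjusted p = 0.081 and 0.1), and *Pno1* was (adjusted p = 0.044). The 3 calls were lost without any 1 of 2, 3 and 1 libraries (highest adjusted p = 0.056, 0.17 and 0.054). None was called in set 1 (adjusted p = 0.23, 0.16 and 0.11), and in set 2 *Nop2* was (adjusted p = 0.035) and *Mrto4* and *Pno1* were not (adjusted p = 0.082 and 0.058). *Srm*, spermidine synthase, likewise chosen, had a median of 4.13 and a highest value of 9.52 per 10000 at E10, and was at 0 to 3.83 in set 1 and 0 to 3.28 in set 2, with 10 of 12 E11 libraries below all E10 libraries (log2 -2.13 ± 0.49, SE, edgeR adjusted p = 0.0046). It kept its call with any single library left out (adjusted p at most 0.037) and with relative log expression scaling (adjusted p = 0.027), and was called in set 2 (adjusted p = 0.047) and not in set 1 (adjusted p = 0.066). Also outside the lists and added by hand, *Cct3* and *Cct8* of the TRiC chaperonin, and *Hspd1*, fell by 1.23, 1.28 and 1.17 (adjusted p = 0.033, 0.032 and 0.019). None of the 3 was called in set 1 (adjusted p = 0.31, 0.11 and 0.11). In set 2 *Cct3* was (adjusted p = 0.025) and *Cct8* and *Hspd1* were not (adjusted p = 0.15 and 0.079). These calls were lost without any 1 of 9, 7 and 2 libraries and with relative log expression scaling (adjusted p = 0.22, 0.2 and 0.2).

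Of 9 glycolytic genes tested with the lower bar, *Pkm* and *Ldha* fell, beside 2.13% of all genes, none rose and 7 did not pass, with a median of -0.99. With relative log expression scaling neither was called (adjusted p = 0.18 and 0.22). *Pkm* was called in set 2 (adjusted p = 0.048) and not in set 1 (adjusted p = 0.14), and *Ldha* in neither (adjusted p = 0.23 in set 1 and 0.059 in set 2). *Pkm*, pyruvate kinase, was at 6.53 to 14.1 per 10000 at E10 (median 8.19), 0.926 to 9.85 in set 1 (median 2.91) and 2.46 to 9.08 in set 2 (median 3.57), and 10 of 12 E11 libraries lay below all E10 libraries (log2 -1.32 ± 0.34, SE, edgeR adjusted p = 0.015, lost without E10 library 4). *Ldha*, lactate dehydrogenase A, was at 3.07 to 11.8 at E10, 0.926 to 7.91 in set 1 and 1.73 to 5.74 in set 2 (log2 -1.11 ± 0.31, SE, adjusted p = 0.032, lost without any 1 of 8 libraries). Over the 260 genes, 4 glycolytic genes were tested, none was called and the median was -0.72. As a share of the library, glycolytic transcripts took 0.466 to 0.71% at E10, 0.281 to 0.566% in set 1 and 0.197 to 0.435% in set 2. The respiratory chain list had 33 tested and none called, with a median of -0.36, and splicing factors 18 tested and none called, with a median of -0.38. The E-box CACGTG, which Myc and related factors bind, was in a promoter window of 11 of the 40 lower genes that have one, against 14.2% of all genes tested with the lower bar that have one, and in 0 of 13 such higher genes, counts that describe these lists and were not tested. The same counts for the other motifs were 15 of 40 against 42.4% for the CCAAT box, 22 against 64% for the CACCC box, 5 against 8.36% for the TATAAA box and 3 against 7.54% for the GATA motif. *Ldha* (chr7:46845554-46845853, plus strand) and *Nop2* (chr6:125131633-125131932, plus strand) are shown as examples, with CACGTG in capitals, at -145 and -48 in *Ldha* and at -60 in *Nop2*. The *Ldha* window was selected for holding CACGTG. In RefSeq the *Ldha* gene begins at 46842274, upstream of this window.
Ldha: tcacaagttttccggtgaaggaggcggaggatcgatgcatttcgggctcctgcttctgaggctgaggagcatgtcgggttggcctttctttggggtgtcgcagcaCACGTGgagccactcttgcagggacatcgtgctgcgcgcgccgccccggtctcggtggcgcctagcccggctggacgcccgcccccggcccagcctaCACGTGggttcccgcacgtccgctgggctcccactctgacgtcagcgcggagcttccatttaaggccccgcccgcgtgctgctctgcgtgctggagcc
Nop2: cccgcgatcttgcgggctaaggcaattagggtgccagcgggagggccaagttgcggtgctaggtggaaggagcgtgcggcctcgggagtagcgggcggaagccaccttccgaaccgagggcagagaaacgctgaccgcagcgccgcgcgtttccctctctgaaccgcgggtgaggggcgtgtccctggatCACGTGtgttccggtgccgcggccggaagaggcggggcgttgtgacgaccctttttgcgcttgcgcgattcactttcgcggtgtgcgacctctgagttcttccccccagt

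**Figure D5:**
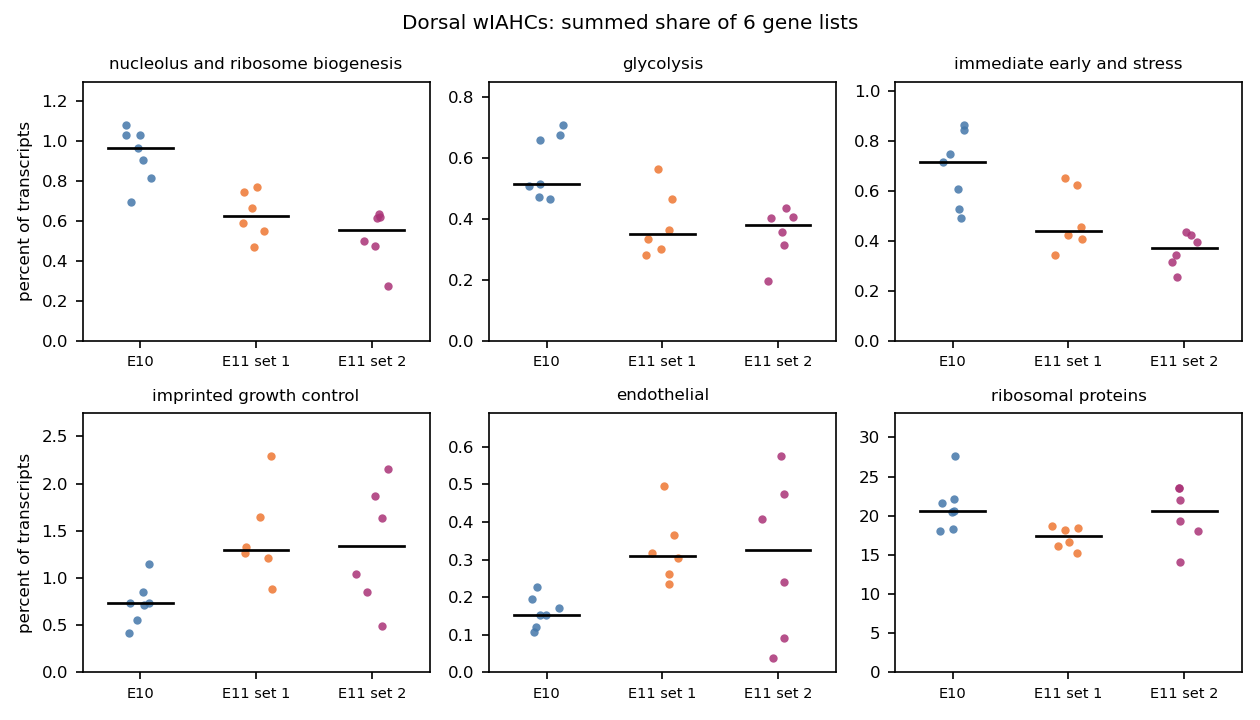
Summed share of 6 gene lists in each dorsal wIAHC library, in percent of all transcripts and without further scaling, for E10 (7), E11 set 1 (6) and E11 set 2 (6), with the median as a line. Nucleolar genes run from 0.692 to 1.08% at E10 and from 0.276 to 0.77% at E11, and endothelial genes of set 1 (0.234 to 0.496%) lie above those of E10 (0.107 to 0.227%). Endothelial genes of set 2 run from 0.0394 to 0.575%, from below to above the E10 range.

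The genes by which IAHC cells and their endothelial neighbours are known showed no call except *Mecom*. *Mecom*, also called Evi1, a transcription factor of haematopoietic stem cells, had 3 transcripts over the E10 libraries and 17 over those of E11 (log2 2.66 ± 0.81, SE, edgeR adjusted p = 0.049), and was called in set 1 (3.19, adjusted p = 0.016) and not in set 2 (1.10, adjusted p = 0.73). This call was lost without any 1 of 10 libraries. *Kit*, the receptor stained for picking, was at 0 to 5.85 per 10000 at E10 (median 2.82), 3.83 to 15 in set 1 (median 7.17) and 0 to 4.54 in set 2 (median 2.88), with a log2 fold change of 0.52 ± 0.46 (SE, adjusted p = 0.66). *Gpr56*, the adhesion receptor that marks IAHCs, was at medians of 5.12, 9.36 and 3 (log2 0.38 ± 0.46, SE, adjusted p = 0.66 over 260 genes). *Cd34* was at medians of 4.74, 3.9 and 4.49 (log2 -0.46 ± 0.46, SE, adjusted p = 0.58 over 260 genes). *Runx1*, the factor needed for endothelial cells to become blood, was at -0.59 ± 0.49 (SE, adjusted p = 0.62, with -0.12 in set 1 and -1.73 in set 2) and *Gata2*, another factor of blood emergence, at 0.82 ± 0.64 (SE, adjusted p = 0.59, with 0.71 and 0.96). *Mpo*, a granule enzyme of myeloid progenitors, had 21 transcripts at E10 and 7 at E11 (log2 -0.86, adjusted p = 0.62), and *Ptprc*, which encodes CD45, 6 and 7, too few to test. E10 library 4, the deepest, held 14 of the 21 *Mpo* transcripts, and mean *Mpo* levels were 0.743 per 10000 at E10 and 0.521 at E11. Of 20 haematopoietic transcription factors tested with the lower bar, 1 rose, beside 0.750% of all genes, none fell and the median was 0.19. Of 10 signalling genes shared by blood cells none was called, 9 had negative values and the median was -0.78, beside -0.23 for all genes, and of 11 surface markers of clusters and progenitors none was called (median 0.02).

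None of 10 endothelial genes tested with the lower bar was called. All 10 had positive values over both sets, with a median of 0.84 beside -0.23 for all genes. *Vwf*, von Willebrand factor, was at 0 to 1.02 per 10000 at E10, 0 to 8.95 in set 1 and 0 to 6.81 in set 2 (log2 1.69 ± 0.60, SE, edgeR adjusted p = 0.11, with 2.04 in set 1 and 0.94 in set 2). *Cdh5*, VE-cadherin, was at 0.83 ± 0.49 (SE, adjusted p = 0.46) and *Pecam1*, which encodes CD31, at 0.53 ± 0.51 (SE, adjusted p = 0.69). Both had opposite signs in the sets, with 1.26 in set 1 and -0.13 in set 2 for *Cdh5*, and 0.94 and -0.46 for *Pecam1*. *Procr*, the endothelial protein C receptor and a stem cell marker, was below the bar, with transcripts in 2 of 7 E10 libraries, 6 of 6 of set 1 and 1 of 6 of set 2. Immediate early and stress genes took 0.491 to 0.866% of transcripts at E10, 0.344 to 0.653% in set 1 and 0.256 to 0.435% in set 2, where all libraries lay below E10, and none of 9 tested was called. Of 16 S phase genes none was called (median -0.60), and of 20 genes of G2 and mitosis 1 fell, beside 2.13% of all genes, namely *Aurka*, the mitotic kinase (-2.56 ± 0.75, SE, adjusted p = 0.039, lost without any 1 of 13 libraries and with relative log expression scaling), with a median of 0.11.

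Set 2 was higher than set 1 at E11 for 10 of 347 genes (2.88%, edgeR adjusted p of 0.05) and lower for 0, in the fit that splits E11 by set. DESeq2 called 2 of the 10, both higher in set 2. The 3 globin genes led, with log2 differences of 6.64 ± 1.26 (*Hbb-y*), 7.84 ± 1.52 (*Hbb-bh1*) and 6.60 ± 1.46 (*Hba-x*) (SE, adjusted p = 0.00047, 0.00047 and 0.0017). The other 7 were 4 ribosomal protein genes, 2 entries named as pseudogenes of *Rps15a* and the transcribed pseudogene *Gm11517*. They were *Rpl27* (1.13 ± 0.23, adjusted p = 0.00047), *Rps10* (0.97 ± 0.19, adjusted p = 0.00047), *Rplp1*, *Rps16*, *Rps15a-ps4*, *Rps15a-ps6* and *Gm11517*. *Rpl27* was at 6.65 to 20.1 per 10000 in set 1 and 15.3 to 35.1 in set 2, and at 14.3 to 19.9 at E10, which overlaps the range of each set. *Gm11517* was at 7.16 to 14.1 at E10, 0.831 to 3.7 in set 1 and 2.27 to 20.4 in set 2, so that set 1 lay wholly below E10. Without E11 library 9, 5 genes were called between the sets, and *Hbb-bh1* lost its call (5.40, edgeR adjusted p = 0.057).

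No gene of 260 passed the test for a stage effect that differs between dorsal and ventral wIAHCs (interaction of stage and side, edgeR, 0 called, 0%, with 23 at an unadjusted p under 0.05, and 0 called by DESeq2). Ventral medians of E10 and E11 moved from 9.39 to 6.97 per 10000 for *Hspe1*, from 11 to 9.33 for *Mif*, from 9.19 to 9.41 for *Rplp2* and from 4.17 to 39.2 for *Rn45s*. For *Rplp2*, the interaction was -0.81 (adjusted p = 0.42).

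Single IAHC cells of the same series, in tables that the authors scaled apart for each stage, give levels with 1 sample a group and no test. Exact 95% Poisson intervals are in parentheses and cover counting error only. *Igf2* was at 38.7 per 10000 (36.2 to 41.4) in 73 E10 c-kit+CD31+ cells, 38 (36.8 to 39.2) in 201 E11 c-kit+CD31+ cells and 25.8 (24.3 to 27.3) in 89 E11 c-kit+ cells. *H19* was at 50.5 (47.6 to 53.6), 52.3 (50.9 to 53.7) and 36 (34.2 to 37.8). For both genes the intervals of the c-kit+CD31+ cells of E10 and E11 overlapped, and the c-kit+ cells lay lower. *Slc23a1* was at 9.41 (8.17 to 10.8) in the E10 cells and at 0.0995 (0.0477 to 0.183) and 1.98 (1.59 to 2.44) in the E11 cells, the opposite order to the wIAHCs. The order was also opposite for *Gm9846*, at 18.1 (16.3 to 20), 8.79 (8.22 to 9.39) and 3.44 (2.91 to 4.03), and for *Gm15421*, *Stxbp2* and *A230046K03Rik*, all lower in the E11 cells, the last with overlapping intervals for the c-kit+ cells. *Mir682* was higher in the E11 cells, at 3.65 (2.9 to 4.55), 5.27 (4.83 to 5.74) and 4.74 (4.12 to 5.43), with overlapping intervals for the E10 and the E11 c-kit+ cells. *Hspe1* was at 12.1 (10.7 to 13.6), 8.27 (7.72 to 8.85) and 9.66 (8.77 to 10.6), and *Mif* at 18.1 (16.3 to 20), 9.63 (9.03 to 10.3) and 9.55 (8.66 to 10.5). *Actg1*, *Hspd1*, *Ldha* and *Srm* were also lower in both groups of E11 cells than in the E10 cells, for *Srm* at 5.43 (4.5 to 6.5), 3.15 (2.82 to 3.52) and 3.8 (3.25 to 4.42). *Cct8* was lower in both as well, at 9.04 (7.83 to 10.4), 5.29 (4.85 to 5.76) and 4.11 (3.54 to 4.75). *Cct3*, *Pkm*, *Nip7*, *Nop2*, *Bop1* and *Aurka* had lower values in both, with intervals apart from those of the E10 cells in at least 1 group for all but *Bop1*. *Dkc1* and *Pno1*, which fell in the wIAHCs, were not lower in the E11 c-kit+ cells, with *Dkc1* at 1.32 (0.887 to 1.9), 0.697 (0.543 to 0.88) and 1.33 (1.01 to 1.71), and *Pno1* at 1.14 (0.739 to 1.69), 0.607 (0.464 to 0.78) and 1.37 (1.05 to 1.76), while the intervals of *Mrto4* overlapped. *Lars2*, higher in the wIAHCs of E11, was at 3.38, 2.06 and 2.79 in the cells, with intervals that overlapped between the E10 and the E11 c-kit+ cells. *Igf1r* and *Hist1h2ao*, also higher in the wIAHCs of E11, were higher in both groups of E11 cells, *Igf1r* at 0.137 (0.0282 to 0.4), 0.806 (0.64 to 1) and 1.03 (0.757 to 1.38), and *Hist1h2ao* at 0.685 (0.383 to 1.13), 1.7 (1.46 to 1.98) and 7.75 (6.96 to 8.62). *Hbb-y* was at 3.06 (2.37 to 3.89), 0.139 (0.0762 to 0.234) and 0.831 (0.585 to 1.15), so that the E11 single cells held less of it than the E10 cells and far less than wIAHCs of set 2.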

How the data were processed

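Whole IAHCs were picked from embryo slices and sequenced with CEL-Seq, which counts 3′ ends with unique molecular identifiers (UMIs). The authors deposited estimated counts of transcripts per gene, corrected for UMI collisions and not scaled for depth. Undoing the correction with 256 UMIs gave whole numbers (largest deviation 3.13e-13), apart from 6 values at saturation. For single cells, the authors had also equalised the totals of all cells and added 0.1, which was taken off. Of these tables, 758 columns, of other cell types or of no recognised sample, were not used. Submitters' processing notes name BWA 0.6.2-r126 and mm10.

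Counts were rounded and tested with edgeR 4.0.16 (R 4.3.3, TMM scaling, filterByExpr, quasi-likelihood test, Benjamini-Hochberg adjusted p of 0.05) over 4 groups of stage and side in 57 libraries of at least 5000 transcripts, the depth that sets the precision. The sets were compared in a fit with E11 split by set. Levels are transcripts per 10000, divided by library total and TMM factor of the 260-gene fit. DESeq2 1.42.0, other scalings, filters, depths, sets and libraries left out were alternatives. P-values measure the spread between wIAHCs, and wIAHCs of 1 embryo cannot be recognised. Totals were compared with exact permutation tests (scipy). The genes named were the 12 with the smallest p in each direction, the other higher genes called, and identity genes. Genes of the lists called in either test, and up to 5 from each of the interaction and the set comparison, were also named. Further genes were added by hand, among them *Hspd1*, *Npm1*, *Ncl*, *Srm*, *Hmga2*, *Cdkn1c*, *Cct3* and *Cct8*. Members and lists were chosen with earlier results of these data known, the list of ribosomal proteins was restated after the values were seen, and alternatives that were added later are said to be so.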

Additional observations from a re-analysis of the deposited data

Results flagged for a closer look

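In 19 of 87 sets of 6 or 7 libraries examined, the highest or lowest library stood apart by Dixon's criterion, which chance meets in about 1 of 20 groups. E10 library 4 held 115328 transcripts, and E10 libraries 5, 6 and 3 stood apart for *Slc23a1* (0.732 per 10000), *Lrrc58* (6.09) and *Actg1* (59.3). In set 1, E11 library 3 stood apart for *Hbb-bh1* (2.78), *Hba-x* (4.63) and the haemoglobin share (0.174%), and E11 library 2 for *Casc4* (110), *Nphs1* (24.3) and *Stxbp2* (42.2). In set 2, E11 library 9 stood apart for *Hbb-y* (1633), *Hbb-bh1* (1041), *Hba-x* (735) and the haemoglobin share (27.5%). E11 library 7 stood apart for *Rn45s* (316), *Nphs1* (18.2) and *Malat1* (59), and E11 library 12 for *Rpl22l1* (20.3) and *Rpl27a* (57.2).

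The effect of stage differed between the E11 sets, which share the E10 libraries, for 10 genes by the edgeR test of the difference itself. The log2 difference of set 2 from set 1 was 6.64 for *Hbb-y*, 7.84 for *Hbb-bh1*, 6.60 for *Hba-x*, 1.13 for *Rpl27*, 0.97 for *Rps10*, 2.01 for *Gm11517*, 0.81 for *Rplp1*, 0.74 for *Rps16*, 1.55 for *Rps15a-ps4* and 1.08 for *Rps15a-ps6*. Set 2 also lacks spike-in transcripts, and the part of collection or library preparation in these differences was not tested.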

How the results depend on the processing

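In place of 26 genes called between the stages, 13 were called with set 1 only, 191 by DESeq2 (5 higher, 186 lower, 10 shared with edgeR), 51 with library totals only, 107 with no filter, 73 with the lower bar, 15 with dorsal wIAHCs only, 3 with at least 10000 transcripts, 7 with thinning to 5000 and 16 with ribosomal protein and pseudogene entries taken out, an alternative added after the data were seen. Leaving out single libraries gave 17 to 32 calls, with 17 without E11 library 2. The lower bar gave 30 to 73 calls in this way, with 30 without E10 library 4, and 42 without E10 library 1 or 2. The 10 calls between the E11 sets became 2 by DESeq2 and 5 with thinning, and 5 to 13 with single libraries left out. The 0 interaction calls became 21 with no filter, and stayed 0 with any dorsal library left out. Genes per thinned library reversed with 3000 transcripts (-7.58) and with set 2 only (-59.3), and totals passed with set 2 only (-0.421). Signs reversed by DESeq2 for *Rpl31-ps12* (-0.12), *Rpsa* (-0.18), *Rpl27a* (-0.35, and -0.15 with no filter) and *Gpr56* (-0.45, -0.24 with no filter and -0.54 with set 2 only), and with at least 3000 transcripts for *Hba-x* (-0.43). *Slc23a1* and *Rn45s* stayed called under 16 and 18 other settings of the comparison and without any library whose removal left them tested (18 and 19), but with the lower bar and set 2 alone *Slc23a1* was not called (adjusted p = 0.16). The cause of these changes was not tested. With at most 11666 transcripts in a library of set 2, genes of few transcripts could not be tested. Spike-in ratios have no value with set 2 only. No paired analysis was possible because replicate numbers name no shared embryo or day.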
